A study of Mus musculus with 8 samples.

Results

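Genes of the ureteric bud and of the collecting duct it forms are described here, chosen by name from the gene table: Gata3, Tfap2b, Wnt9b, Wnt7b, Calb1, Aqp2, Krt8, Krt18, Krt19 and Upk3a. They are 10 of the 20254 genes in the table, and 10 of 10 passed the filter on low values that left 15381 genes for testing. The values come from RNA sequencing of mouse nephron progenitor cells, isolated at embryonic day 17.5 by sorting green fluorescent cells from dissociated kidneys. There were 4 mutant libraries, labelled homozygous for a Vhl deletion made in nephron progenitors (VHLNP-/-), and 4 control libraries, labelled heterozygous (VHLNP+/-). Both groups carried the Six2EGFPcre transgene, in which the promoter of the progenitor gene Six2 drives green fluorescent protein and Cre recombinase, so the controls also lacked 1 copy of Vhl in cells with active Cre. Vhl encodes the substrate receptor of a ubiquitin ligase through which hypoxia-inducible factor (HIF) is degraded when oxygen is present. The question addressed is whether genes of the neighbouring ureteric epithelium differed between mutant and control progenitor sorts, and how they varied between the libraries of a group.

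The ureteric bud is an epithelial tube that branches into the cap of nephron progenitors. It later becomes the collecting duct of the kidney and the lining of the ureter, and it arises from the nephric duct, a lineage apart from the nephron itself. Its cells send Wnt signals to the progenitors and to the stroma around them, and they keep the keratin filaments of a simple epithelium. In mature kidneys the collecting duct is best known for water reabsorption through aquaporins. Several of these genes are also used elsewhere, Calb1 and Tfap2b in distal parts of the nephron and simple keratins in other epithelia.

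Promoter sequences are shown first, since most of the genes varied together between libraries and the mutants lack a regulator of HIF. RefSeq promoter windows (GRCm38.p6) matched 7 of the 10 genes, and the 250 bases before each start site were searched on both strands for 3 motifs. Krt19, Calb1 and Wnt7b had no matched window, so their promoters were not searched. The HIF core was ACGTG with A or G as its first base, the GATA motif was AGATAA with A or T as its first base, and the AP-2 motif was GCCNNNGGC. Krt8 and Krt18 are shown as the keratin pair with the highest Pearson's r over all 8 libraries. Aqp2 is shown as the water channel of the duct, and Upk3a for its difference between the groups. Bases that the gene annotation places inside a transcribed gene are left out, and capitals mark motif matches on either strand. The windows are chr15:102004483-102004592 (minus strand) for Krt8, chr15:102027966-102028179 (plus strand) for Krt18, chr15:99578806-99579054 (plus strand) for Aqp2 and chr15:85016891-85017140 (plus strand) for Upk3a.
Krt8: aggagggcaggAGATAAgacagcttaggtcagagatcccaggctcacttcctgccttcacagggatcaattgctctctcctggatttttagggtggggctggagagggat
Krt18: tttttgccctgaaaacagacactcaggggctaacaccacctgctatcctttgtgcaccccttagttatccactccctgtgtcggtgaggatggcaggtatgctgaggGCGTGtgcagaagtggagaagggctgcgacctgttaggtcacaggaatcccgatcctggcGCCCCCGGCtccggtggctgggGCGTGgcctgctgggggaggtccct
Aqp2: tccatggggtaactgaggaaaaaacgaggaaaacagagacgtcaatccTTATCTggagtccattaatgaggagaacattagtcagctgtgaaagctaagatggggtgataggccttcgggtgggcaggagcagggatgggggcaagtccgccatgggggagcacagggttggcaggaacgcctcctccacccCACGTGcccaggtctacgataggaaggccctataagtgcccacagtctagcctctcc
Upk3a: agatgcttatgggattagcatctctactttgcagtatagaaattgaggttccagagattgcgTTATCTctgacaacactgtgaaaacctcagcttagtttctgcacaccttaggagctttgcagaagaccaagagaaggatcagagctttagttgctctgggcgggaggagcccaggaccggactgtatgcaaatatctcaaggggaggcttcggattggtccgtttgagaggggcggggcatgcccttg
Distances here run from the start site to the first base of the match. Krt18 held a HIF core 143 and another 61 bases before its start site, with an AP-2 motif at 83. Aqp2 held 2 HIF cores at 58 and 57, which are the same palindrome read on both strands, and a GATA motif at 202. A GATA motif lay 239 bases before the start site of Krt8 and 188 before that of Upk3a, and neither held a HIF core. Of the windows not printed, Tfap2b held 1 HIF core, Gata3 held 3 AP-2 motifs and Wnt9b held 0 matches to the 3 motifs. Among 32851 promoter windows of the same length, 38.6% held a HIF core, 16.6% the GATA motif and 13.7% the AP-2 motif, so a match is a description of the letters in these windows.

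Reads assigned to genes numbered 37252683 to 46515762 per library. Values are normalised reads, which are reads per gene divided by a size factor for each library. Vhl, the targeted gene, had 320.2, 285, 331 and 336 normalised reads in mutants 1 to 4, against 1134, 1379, 1208 and 1179.7 in controls 1 to 4, and fell by 1.94 on the log2 scale (limma adjusted p = 4.22e-08). Six2 was between 21600 and 26992 normalised reads in mutants and between 21553 and 28134 in controls, and the 8 progenitor markers summed to 96810 to 105330 normalised reads in mutants and 99997 to 110961 in controls. Of these 8 markers, 2 were called lower in mutants and 0 higher, and 7 had a log2 fold change below 0. Over all tested genes, 3.03% were called lower and 5.4% higher, and 48.5% had a log2 fold change above 0. Meox1, a homeobox gene of the progenitors, averaged 1622 ± 122 normalised reads in mutants and 2141 ± 131 in controls and fell by 0.40 on the log2 scale (SD, n = 4 each, limma adjusted p = 0.00396). Osr1, a transcription factor of early kidney mesenchyme, averaged 3740.2 ± 318 in mutants and 4437 ± 188 in controls and fell by 0.25 (limma adjusted p = 0.0404), a call lost under 11 of 22 alternatives (adjusted p up to 0.214), among them those without control 2, control 3, control 4, mutant 1, mutant 2 or mutant 4. The 10 ureteric and collecting duct genes summed to far less, with 4610.0, 1826, 3008 and 3789 normalised reads in mutants 1 to 4 and 2953, 2104, 595 and 3717 in controls 1 to 4. Control 3 and mutant 2 therefore stand apart as the lowest library of their groups, and results are given below with and without them where they decide a value. In bulk libraries such as these, fewer cells of a type and less RNA per cell cannot be told apart. Separate animals are not named in the labels, so p-values measure the spread between these libraries only.

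Krt19 rose about 4-fold in mutants and was the only one of the 10 genes called at an adjusted p under 0.05 in the comparison of all 8 libraries. It encodes a type I keratin of simple epithelia and lies at chr11:100140810-100148665 (mm10, minus strand). Its values were 646, 430.3, 426 and 649 normalised reads in mutants 1 to 4, against 139, 121, 99.1 and 179.6 in controls 1 to 4. The groups did not overlap, and the lowest mutant stood above the highest control. Krt19 averaged 538 ± 127 normalised reads in mutants and 135 ± 34.1 in controls (SD, n = 4 each). The log2 fold change was 1.99 (SE 0.20, 95% interval 1.54 to 2.45), with a limma adjusted p of 1.49e-04, and the fold lay between 2.91 and 5.45 over that interval. The call was made under 22 of 22 other settings, with adjusted p up to 0.00242.

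Upk3a, which encodes a uroplakin of the apical plaques of the urothelium (chr15:85017141-85022547, plus strand), had the next largest difference. It also had the fewest reads of the 10, with 31.3, 14.8, 51.3 and 73.4 normalised reads in mutants 1 to 4, against 5.82, 9.82, 7.30 and 26.9 in controls 1 to 4. Mutant 2 was below control 4, so the groups overlapped. The log2 fold change was 1.72 (SE 0.55, 95% interval 0.50 to 2.93), which did not pass the limma test (adjusted p = 0.0883). Without control 4 the limma adjusted p was 0.0298 and without mutant 2 it was 0.0303. In the authors' deposited table Upk3a had a log2 fold change of 1.77 and an adjusted p of 0.0307, where 7.12% of genes were called higher in mutants. The values rest on 16 to 64 reads per library in mutants and 6 to 28 reads in controls.

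The transcription factors Gata3 and Tfap2b did not pass the test. Gata3, a zinc finger factor required in mice for the nephric duct (chr2:9857078-9890034, minus strand), had 260.5, 95.5, 201 and 233 normalised reads in mutants 1 to 4, against 253, 100.2, 31.3 and 270.0 in controls 1 to 4. Tfap2b, an AP-2 factor of the distal nephron and collecting duct (chr1:19208914-19238576, plus strand), had 329.6, 122, 210.4 and 149 normalised reads in mutants 1 to 4, against 344, 256, 51.1 and 208 in controls 1 to 4. For both genes the groups overlapped almost throughout, with mutant 2 the lowest mutant and control 3 the lowest of all 8 libraries. Gata3 had a log2 fold change of 0.60 (95% interval -1.11 to 2.31, limma adjusted p = 0.682), and without control 3 it was -0.04. The value for Tfap2b was 0.10 (95% interval -1.37 to 1.58, limma adjusted p = 0.947), and without control 3 it was -0.48. Gata3 overlaps 3 other annotated genes, some on the opposite strand, and how reads were counted by strand is not stated by the labels, so its values are uncertain to that extent.

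The Wnt ligands gave the same picture. Wnt9b, the bud's inductive signal to nephron progenitors (chr11:103727364-103749821, minus strand), had 134.5, 38.0, 62.4 and 97.4 normalised reads in mutants 1 to 4, against 106, 50.1, 3.13 and 153 in controls 1 to 4. Wnt7b, a ligand that signals from the collecting duct to the medullary stroma in mice (chr15:85535437-85582473, minus strand), had 139, 41.7, 95.6 and 109 normalised reads in mutants 1 to 4, against 99.0, 83.5, 17.7 and 173 in controls 1 to 4. Control 3 was the lowest and control 4 the highest library for both. Before normalisation, Wnt9b had 3 reads in control 3 and 159 in control 4, a ratio of control 4 to control 3 of 48.8 after scaling with an exact 95% interval for counting error of 16.4 to 239. The log2 fold change was 0.81 for Wnt9b (95% interval -1.87 to 3.49, limma adjusted p = 0.733) and 0.30 for Wnt7b (95% interval -1.39 to 2.0, limma adjusted p = 0.856). Without control 3 these values were -0.32 and -0.35. An antisense gene overlaps Wnt7b, so part of its reads may belong to that gene.

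Calb1 and Aqp2, the effector genes of the set, were likewise not called. Calb1 encodes the calcium-binding protein calbindin (chr4:15881264-15908064, plus strand) and had 958, 216, 751 and 485 normalised reads in mutants 1 to 4, against 710.4, 399.7, 57.4 and 566 in controls 1 to 4. Aqp2 encodes the vasopressin-regulated water channel of principal cells (chr15:99579055-99584547, plus strand) and had 482, 197, 231 and 550.3 normalised reads in mutants 1 to 4, against 352, 278, 31.3 and 758 in controls 1 to 4. The groups overlapped, and control 3 was the lowest library for both. For Calb1 the ratio of the highest to the lowest library was 4.43 among mutants and 12.4 among controls, or 1.78 among controls without control 3. For Aqp2 it was 2.80 among mutants and 24.2 among controls, or 2.73 among controls without control 3. Calb1 had a log2 fold change of 0.75 (95% interval -1.30 to 2.80, limma adjusted p = 0.668) and Aqp2 one of 0.58 (95% interval -1.67 to 2.84, limma adjusted p = 0.776). Without control 3 they were -0.05 and -0.34.

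Krt8 and Krt18 encode the type II and type I keratins that pair in filaments of simple epithelia, and neither passed the test. They are neighbours (chr15:101996698-102004482, minus strand, and chr15:102028180-102032027, plus strand), 23697 bases apart with 0 annotated genes between them. Krt8 had 958, 349, 513 and 723 normalised reads in mutants 1 to 4, against 503, 455, 139 and 792 in controls 1 to 4. Krt18 had 672, 322, 466 and 719.9 normalised reads in mutants 1 to 4, against 442, 352, 158 and 591 in controls 1 to 4. Both pairs of groups overlapped, with mutants 1 and 4 and control 4 on the high side. The log2 fold change was 0.57 for Krt8 (95% interval -0.77 to 1.91, limma adjusted p = 0.61) and 0.58 for Krt18 (95% interval -0.48 to 1.64, limma adjusted p = 0.501). Without control 3 these values were 0.07 and 0.20. A non-coding gene overlaps Krt8 on the opposite strand and the annotation names 1 Krt8 pseudogene, so the assignment of some Krt8 reads is uncertain.

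**Figure D1:**
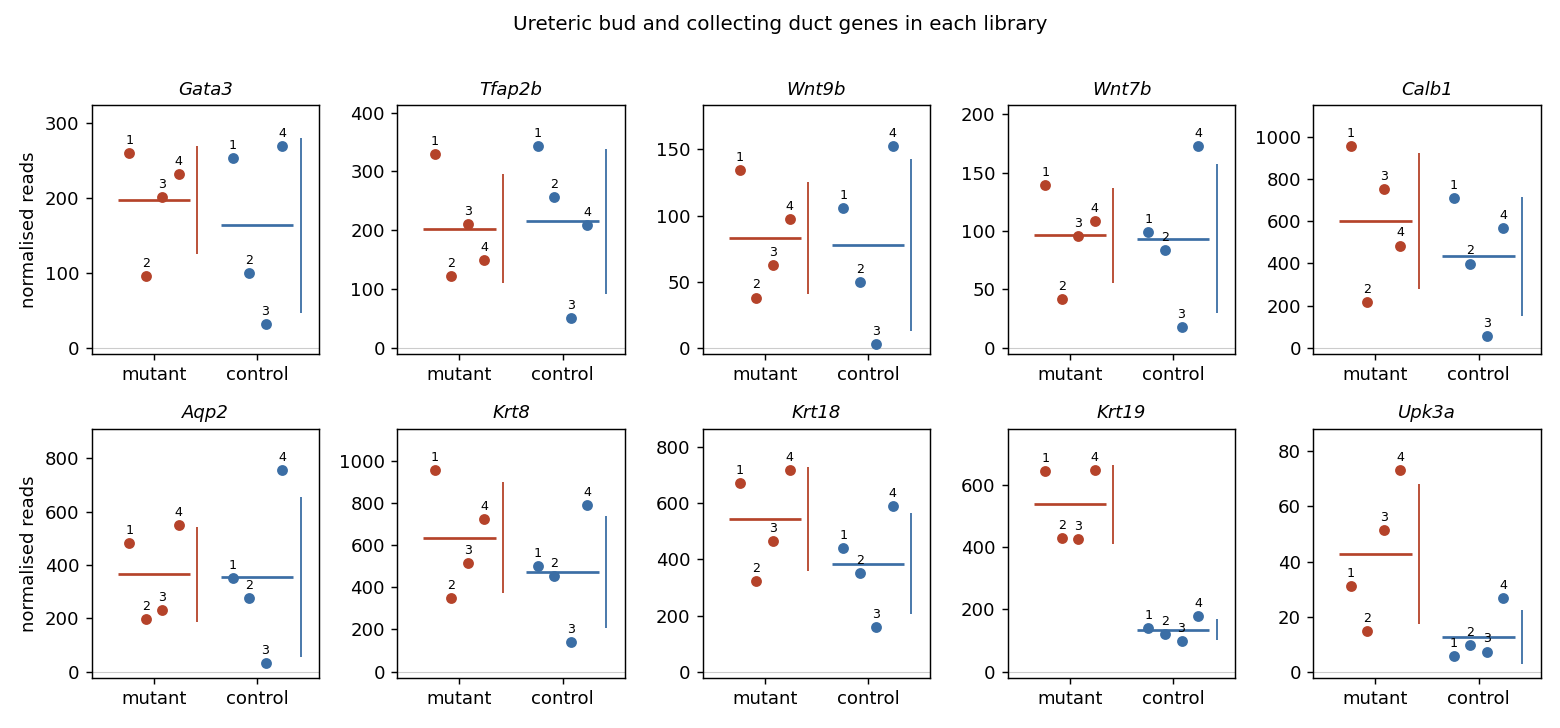
Normalised reads of each of the 10 genes (vertical axes, linear from 0) in the mutant libraries (left, red) and the control libraries (right, blue). Points carry the replicate number, horizontal lines are group means and vertical bars are 1 SD (n = 4 each). Krt19 is the gene whose groups are apart, and control 3 is the lowest control in 9 of the 10 panels.

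As a set, 1 of the 10 genes was called higher in mutants and 0 were called lower, where 5.4% of all tested genes were called higher and 3.03% lower by limma. At an unadjusted limma p under 0.05, 2 genes were higher (Krt19 and Upk3a) and 0 were lower. Of the 15381 tested genes, 1851 were higher and 1727 lower at that threshold. The groups did not overlap, with mutants higher, for 1 of the 10, against 8.54% of all tested genes. The log2 fold change was above 0 for 10 of 10 genes with a median of 0.59, while the median over all tested genes was -0.01. Without control 3, the value was below 0 for 6 of the 10 (Gata3, Tfap2b, Wnt9b, Wnt7b, Calb1 and Aqp2).

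**Figure D2:**
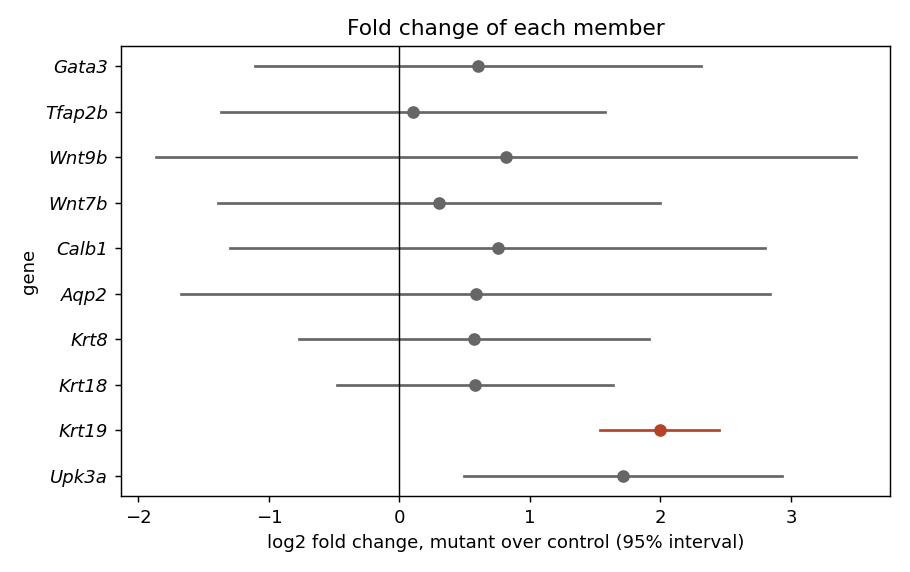
Log2 fold change of each gene, mutant over control, from the limma fit of 8 libraries (horizontal axis), with 95% intervals as bars. The interval of Krt19 (red, called) runs from 1.54 to 2.45 and that of Upk3a from 0.50 to 2.93, while the intervals of the other 8 genes include 0.

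Divided by exonic length, the levels of the 10 genes spanned more than an order of magnitude. In normalised reads per kilobase, mutants had Krt18 at 379 ± 129, Krt8 at 325 ± 135, Krt19 at 289.9 ± 68.3, Aqp2 at 257 ± 125 and Calb1 at 124 ± 66.5 (SD, n = 4). Gata3 at 49.7 ± 18.1, Upk3a at 39.1 ± 23.2, Tfap2b at 32.0 ± 14.5, Wnt7b at 19.7 ± 8.32 and Wnt9b at 18.4 ± 9.31 followed in mutants. In controls the order was Krt18 at 268 ± 126, Aqp2 at 250.1 ± 213, Krt8 at 241 ± 137, Calb1 at 89.4 ± 58.0 and Krt19 at 72.6 ± 18.4 (SD, n = 4). Gata3 at 41.1 ± 29.3, Tfap2b at 33.9 ± 19.4, Wnt7b at 19.0 ± 13.0, Wnt9b at 17.3 ± 14.4 and Upk3a at 11.4 ± 8.93 followed in controls. Neighbours in either order differed by less than the larger of their SDs, except Aqp2 and Calb1, and Calb1 and Gata3, in mutants, and Krt8 and Calb1, and Krt19 and Gata3, in controls. Krt19 ranked 3 in mutants and 5 in controls, and Upk3a ranked 7 in mutants and 10 in controls.

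Libraries of a group differed in the same direction for most of the 10 genes. Mutant 2 was the lowest mutant for 9 of the 10 genes (Krt19 was lowest in mutant 3), and control 3 was the lowest control for 9 of the 10 (Upk3a was lowest in control 1). Both held for 8 of the 10, against 14.8% of all tested genes. The highest library was mutant 1 for 6 genes and mutant 4 for 4 among mutants, and control 4 for 8 genes and control 1 for 2 among controls. Relative to the group mean on the log2 scale, the median deviation of the 10 genes was 0.60, -0.86, -0.02 and 0.32 in mutants 1 to 4, and 0.57, 0.21, -1.84 and 1.07 in controls 1 to 4. Among the 8 genes other than Krt19 and Upk3a, the deviation of control 3 ran from -3.38 (Wnt9b) to -1.13 (Krt18).

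**Figure D3:**
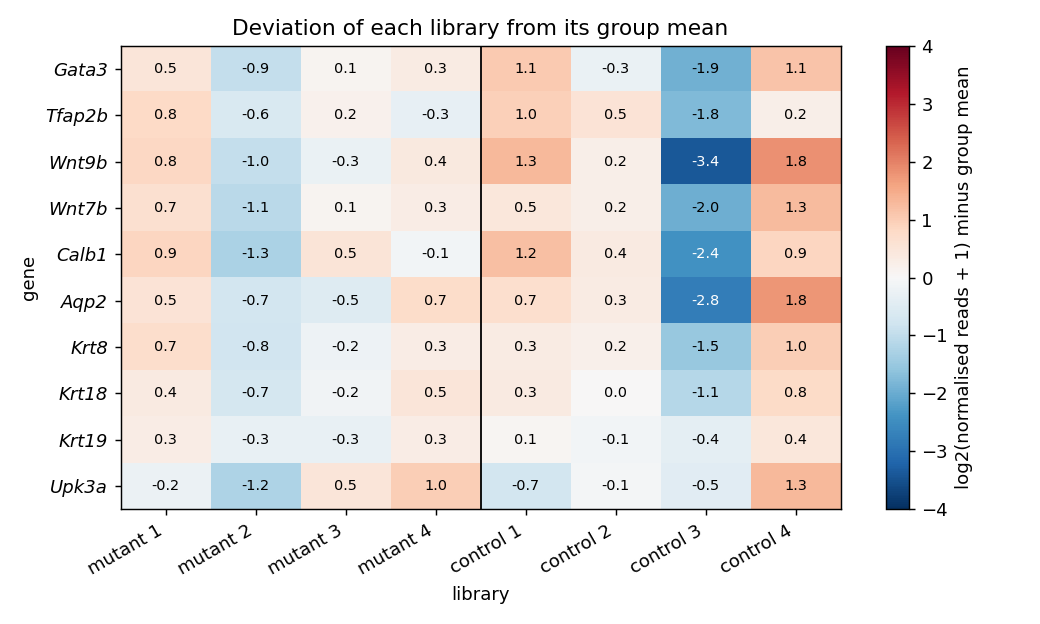
Deviation of each library (columns, mutants left of controls) from its group mean, in log2(normalised reads + 1), for each gene (rows). Mutant 2 and control 3 are blue, below the mean, in 10 of 10 rows, and Krt19 has the palest row.

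Pairwise correlations put a number on this shared variation. Over the 8 libraries with group means removed, Pearson's r was positive for 45 of 45 pairs, with a median of 0.88 and a range from 0.13 (Tfap2b with Upk3a) to 0.99 (Wnt7b with Krt8). An exact two-sided permutation over all pairings of libraries within groups gave an adjusted p under 0.05, by the Benjamini-Hochberg method over the 45 pairs, for 27 pairs by r and 23 by Spearman's rho. The smallest unadjusted p that this test can give is 0.00174. Krt8 with Krt18 had an r of 0.98 and a rho of 0.93 (exact permutation p = 0.00347 and 0.0139, adjusted 0.0112 and 0.0368), and an r of 0.89 without the 2 libraries farthest from the median. Those 2 were picked on the first gene named in a pair, and group means still came from all libraries. Tfap2b with Calb1 had an r of 0.96 and a rho of 0.93 (exact permutation p = 0.00521 and 0.00694, adjusted 0.0146 and 0.0284), and an r of 0.84 without those 2. It was the only pair of Tfap2b that passed, while Upk3a passed with 0 genes and Gata3, Wnt9b, Wnt7b, Krt8 and Krt18 with 7 each. Calb1, Aqp2 and Krt19 passed with 6 each. These counts per gene are by r. By rho, Calb1 did not pass with Wnt9b, Wnt7b, Krt8 or Krt18 (exact permutation, adjusted p = 0.0521, 0.0751, 0.0751 and 0.234). Krt18 with Krt19 had an r of 0.91, and one of 0.97 without the 2 libraries farthest from the median.

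The strength of the shared variation depended on the extreme libraries. When the 2 libraries farthest from the median of the first gene of each pair were left out, the median r was 0.66 and 40 of 45 pairs were positive. The libraries left out were control 3 with mutant 2 or with control 4, depending on that gene. Group means were not taken again, so these values are not strictly correlations within groups of the libraries kept. Without control 3 and mutant 2 the median r over the 45 pairs was 0.61. Among the 8 genes other than Krt19 and Upk3a, the median r was 0.95, and 0.76 without the 2 farthest libraries, when the lowest was -0.09 (Tfap2b with Krt18).

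**Figure D4:**
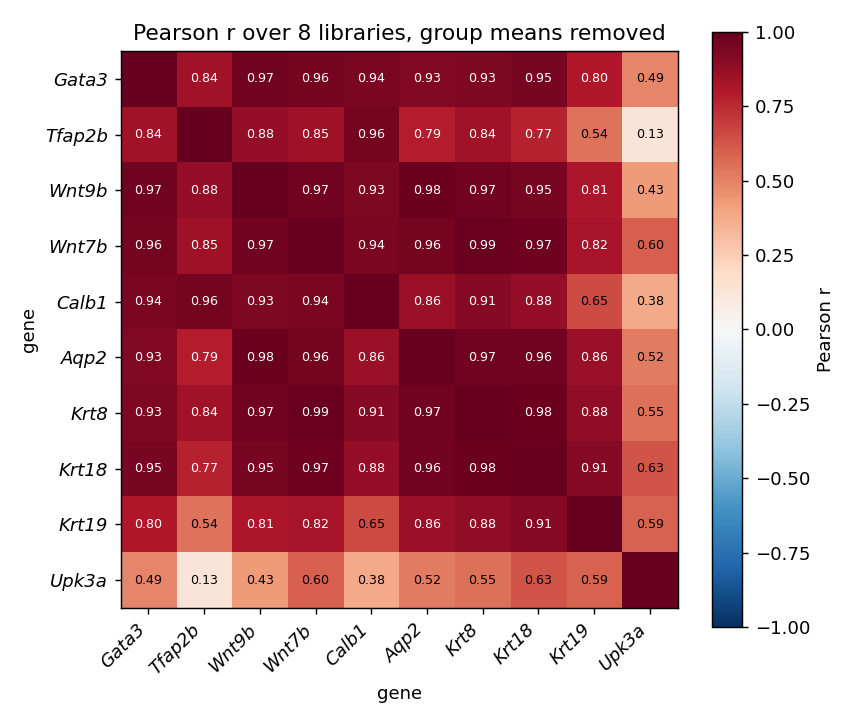
Pearson's r between each pair of the 10 genes over 8 libraries after subtraction of the group mean of log2(normalised reads + 1). The 8 genes from Gata3 to Krt18 correlate between 0.77 and 0.99, Krt19 with the other genes between 0.54 and 0.91, and Upk3a (last row) between 0.13 and 0.63.

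Several other marker lists were low in the same libraries, but their highest libraries differed in part. Control 3 and mutant 2 were both lowest of their groups for 8 of 10 tested proximal tubule markers, 7 of 12 of the loop of Henle and distal tubule, 8 of 11 of stroma and 9 of 12 of the early nephron epithelium. The count was 3 of 10 for podocytes, 2 of 9 for endothelium, 1 of 7 for leukocytes, 0 of 2 for erythroid cells and 0 of 8 for nephron progenitors. The highest control was control 4 for 8 of the 10 genes. It was control 4 for 1 of 10 proximal tubule, 5 of 12 distal, 0 of 11 stromal and 3 of 12 early nephron markers. Proximal tubule markers summed to 10262, 3282, 5951 and 3872 normalised reads in mutants 1 to 4 and to 5665, 9659, 2305 and 8161 in controls 1 to 4. Stromal markers summed to 23078 to 47035 normalised reads in mutants and 26322 to 58829 in controls. Early nephron markers summed to 39509 to 47788 in mutants and 42742 to 48758 in controls, and distal markers to 17354 to 19717 in mutants and 17971 to 19774 in controls. The median deviation of the distal markers in control 3 was -1.78 on the log2 scale, which their sum does not show. Podocyte markers summed to 25132 to 27641 in mutants and 28413 to 33993 in controls, endothelial ones to 1967 to 2522 in mutants and 1408 to 2675 in controls, leukocyte ones to 566 to 902 in mutants and 496 to 961 in controls, and erythroid ones to 72.2 to 174 in mutants and 112 to 293 in controls. Of these markers, 0 were at 0 in every library, while Pvalb, Hba-a1 and Hbb-y were at 0 in some. Progenitors also express some of the listed genes, such as Wt1 of the podocyte list and Wnt4 of the early nephron list, which weigh on those sums. In the early nephron list 1 of 12 tested markers (Cdh6) was called lower in mutants. Called higher were 1 of 12 distal markers (Trpm6) and 1 of 9 endothelial markers (Plvap). Over all tested genes, 5.4% were called higher and 3.03% lower. The part of these cell types in the spread of the 10 genes was not tested.

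Krt19 was also set beside the other simple keratins within each library. Its coefficient of variation was 23.6% in mutants and 25.4% in controls, or 20.6% in controls without control 3. Krt18 had 34.0% in mutants and 47.0% in controls (26.2% without control 3), and Krt8 had 41.5% in mutants and 56.6% in controls (31.3% without control 3). These differences in spread were not tested and rest in part on control 3. The ratio of Krt19 to Krt18 was 0.962, 1.34, 0.914 and 0.901 in mutants 1 to 4, against 0.314, 0.344, 0.629 and 0.304 in controls 1 to 4. Every mutant ratio was above every control ratio (exact two-sided permutation p = 0.0286, the smallest that 4 against 4 libraries can give, and 0.133 adjusted over the 7 ratios computed). The ratio of Krt19 to Krt8 was 0.675, 1.23, 0.829 and 0.897 in mutants 1 to 4, against 0.276, 0.266, 0.714 and 0.227 in controls 1 to 4, with overlap through control 3 (exact permutation p = 0.0571, adjusted 0.133). The ratio of Krt8 to Krt18 averaged 1.15 ± 0.186 in mutants and 1.16 ± 0.207 in controls (SD, n = 4 each, exact permutation p = 1.0). The ratio of Upk3a to Krt18 averaged 0.0762 ± 0.0346 in mutants and 0.0333 ± 0.0158 in controls (exact permutation p = 0.0571, adjusted 0.133).

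**Figure D5:**
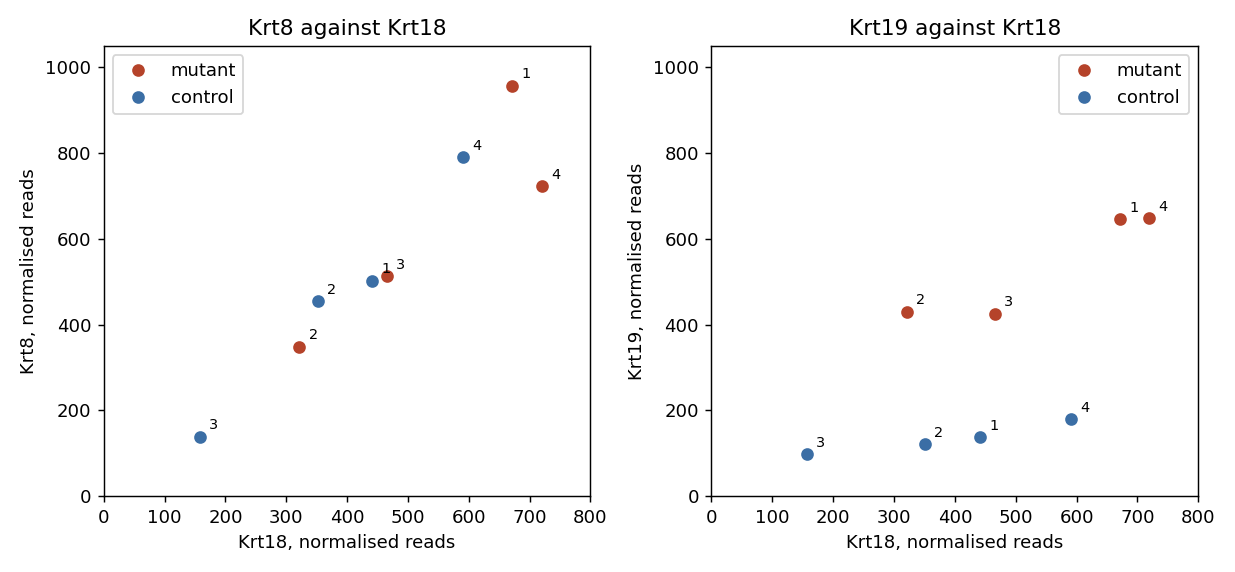
Normalised reads of Krt8 (left) and Krt19 (right) against those of Krt18 in each library, with mutants in red, controls in blue and replicate numbers beside the points. The Krt8 points of the groups overlap, while the Krt19 points of mutants (426 to 649) lie above those of controls (99.1 to 179.6) over an overlapping range of Krt18.

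A fit that holds the level of principal cell transport genes constant gave narrower intervals. It used the mean log2 level of 14 such genes, with no member of the set among them, as a covariate, and it was chosen after seeing the data. Genes in that mean varied with the members in these same libraries. Scnn1b had an r of 0.99 with the mean of the members, and Aqp3 one of 0.999 with Aqp2. Narrower intervals follow from this choice, so the fit adds no separate evidence. In this fit 2 of the 10 genes were called higher in mutants (Krt19 and Krt18), where 6.06% of all tested genes were called higher. Krt19 had a log2 fold change of 1.92 (95% interval 1.64 to 2.2, limma adjusted p = 2.86e-06), and Krt18 had one of 0.41 (95% interval 0.21 to 0.61, limma adjusted p = 0.018). Krt18 was called under this setting alone. Krt8 had 0.36 (95% interval 0.11 to 0.60, limma adjusted p = 0.0725) and Upk3a had 1.59 (limma adjusted p = 0.0669). For Aqp2 the value was 0.22 (95% interval -0.14 to 0.58) and for Wnt7b 0.03 (95% interval -0.34 to 0.40), against intervals from -1.67 to 2.84 and from -1.39 to 2.0 without the covariate.

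The genes whose library pattern was most like the mean of the 10 are named here as a description. Over 8 libraries with group means removed, and among 12213 other genes with a mean of at least 100 normalised reads, these were Cldn4 (r = 0.99, a tight junction claudin), Pdzk1ip1 (0.99), St14 (0.99, the membrane protease matriptase), Scnn1b (0.99, a subunit of the epithelial sodium channel) and Cdh16 (0.99, kidney-specific cadherin). In all, 219 of the 12213 had an r over 0.9, each computed from the same 8 libraries. Aqp2 was most like Aqp3 (r = 0.999), the basolateral water channel of the same cells, and Rhcg (0.998), an ammonia transporter. Gata3 was most like Cav2 (0.998) and the epithelial ETS factor Ehf (0.996), Calb1 like Tmem52b and Plekha6 (both 0.99), and Tfap2b like Stard8 and Igfbp3 (both 0.99). Krt8 was most like Cdh16 and the protease inhibitor Spint1 (both 0.99), and Krt18 like Cldn4 and the ETS factor Elf3 (both 0.99). Krt19 was most like 3000002C10Rik (0.99) and the receptor gene Kit (0.97), and 33 genes had an r over 0.9 with it, against 118 for Aqp2 and 343 for Calb1.

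Lists of other genes of the same epithelium are read against all tested genes, of which 91.6% were not called. Of 23 tested regulators and adhesion genes of the ureteric and collecting duct epithelium, 0 were called in either direction by limma, and 21 had a log2 fold change above 0 with a median of 0.23. Control 3 was the lowest control for 21 of the 23, and without it 9 of the 23 were above 0 with a median of -0.08. Over all tested genes, 48.5% were above 0, and 47.7% without control 3. Epcam, an epithelial adhesion molecule, had 2354, 1384, 1815 and 1702 normalised reads in mutants 1 to 4, against 1225, 1039.9, 599 and 1283 in controls 1 to 4. Its groups did not overlap, but its log2 fold change of 0.84 did not pass the limma test (adjusted p = 0.122). It was not called under 19 of 22 alternatives (adjusted p up to 0.263). Cdh1, E-cadherin, averaged 707 ± 369 normalised reads in mutants and 734 ± 407 in controls (SD, n = 4 each, limma adjusted p = 0.954). Hoxb7, a homeobox gene of the nephric duct lineage, averaged 1427 ± 155 in mutants and 1369.9 ± 59.9 in controls (limma adjusted p = 0.743). Krt7, another simple keratin, averaged 215 ± 104 in mutants and 231 ± 148 in controls (limma adjusted p = 0.933).

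Over all tested genes, 5.4% were called higher and 3.03% lower. Among 15 tested genes of the ureteric tip, the branching end of the bud, 0 were called higher and 1 lower. That gene was Sox8, a SOX family transcription factor, which averaged 139 ± 15.2 normalised reads in mutants and 213 ± 42.1 in controls and fell by 0.60 on the log2 scale (SD, n = 4 each, limma adjusted p = 0.031). The call of Sox8 was lost under 8 of 22 alternatives (adjusted p up to 0.119), among them those without control 2, control 3, control 4, mutant 1, mutant 2 or mutant 4. Ret, the tip receptor for GDNF, averaged 233 ± 141 normalised reads in mutants and 208 ± 104 in controls (limma adjusted p = 0.924). Wnt11, a tip ligand, averaged 504 ± 94.4 in mutants and 377 ± 43.4 in controls, with a log2 fold change of 0.41 (limma adjusted p = 0.0851), and it was not called under 20 of 22 alternatives (adjusted p up to 0.191). In the mature duct lists, 0 of 14 principal cell genes and 0 of 12 intercalated cell genes were called, with median log2 fold changes of 0.10 and -0.27, which were -0.25 and -0.96 without control 3. Under 2 of 22 alternatives, up to 2 intercalated cell genes were called lower. Aqp3 averaged 148 ± 59.3 in mutants and 181 ± 143 in controls (limma adjusted p = 0.926), and Foxi1, the master regulator of intercalated cells, averaged 55.9 ± 37.3 in mutants and 78.0 ± 61.9 in controls (limma adjusted p = 0.943).

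Urothelial and keratin filament genes each held 1 gene called higher in mutants, where 5.4% of all tested genes were called higher. Mutants lay above controls without overlap for 2 of 9 urothelial and 3 of 10 keratin and desmosome genes. That share was 8.54% over all tested genes. Trp63, the transcription factor of basal urothelial cells, had 34.1, 21.3, 41.3 and 27.5 normalised reads in mutants 1 to 4, against 17.5, 10.8, 7.30 and 13.4 in controls 1 to 4. Trp63 rose by 1.29 on the log2 scale without overlap (limma adjusted p = 0.0261), as the 1 gene called of 9 tested urothelial genes. The call of Trp63 was lost under 8 of 21 alternatives (adjusted p up to 0.0897), among them those without control 2, control 3, control 4, mutant 1, mutant 3 or mutant 4. Upk1b, the tetraspanin partner of Upk3a, averaged 25.2 ± 17.7 in mutants and 9.995 ± 5.54 in controls, with a log2 fold change of 1.17 (SD, n = 4 each, limma adjusted p = 0.239), and Upk2 was below the filter at 13.0 ± 7.51 in mutants and 4.39 ± 3.5 in controls. Pkp2, a desmosomal plaque protein that links to intermediate filaments, had 707, 618, 539.6 and 620.2 normalised reads in mutants 1 to 4, against 208, 224, 182 and 227 in controls 1 to 4. It rose by 1.56 on the log2 scale (limma adjusted p = 2.77e-06), as 1 of 10 tested keratin and desmosome genes, with 0 called lower in either list, and Pkp2 was called under 22 of 22 alternatives.

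Of 25 other genes for Wnt ligands, secretion and receptors, 1 was called higher and 1 lower. Over all tested genes, 5.4% were called higher, 3.03% were called lower and 91.6% were not called. Fzd1, a Wnt receptor, averaged 4689 ± 283 normalised reads in mutants and 3155 ± 118 in controls and rose by 0.57 on the log2 scale (SD, n = 4 each, limma adjusted p = 8.41e-05). Adgra2, a coreceptor for Wnt7 ligands in mouse brain vessels, averaged 6371 ± 365 in mutants and 7604 ± 400.1 in controls and fell by 0.26 (limma adjusted p = 0.0237). Fzd1 was called under 22 of 22 alternatives, while the call of Adgra2 was lost under 9 (adjusted p up to 0.158), among them those without control 2, control 4, mutant 2, mutant 3 or mutant 4. Wnt4, the ligand that progenitors make as they turn epithelial, averaged 10283 ± 1346 in mutants and 10308 ± 1009 in controls (limma adjusted p = 0.975). Of 8 tested progenitor genes known to need Wnt9b in mice, 0 were called. Under 5 of 22 alternatives, among them the authors' deposited table, 1 of the 8 was called lower. Of 10 tested paralogs of Gata3, Tfap2b, Calb1 and Aqp2, 0 were called as well, and 1 was called lower under 1 of 22 alternatives.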

How the data were processed

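RNA sequencing libraries of sorted progenitors (4 mutant, 4 control) were grouped by their genotype labels. STAR 2.5.3a, DESeq2 1.18.1 and mm10 are named in the authors' processing notes, and the read counter, the annotation and any use of strand are not. The deposited table holds a signal per library, which the values show to be reads divided by size factors, divided a second time by the same factors cycled down the genes. For 20254 of 20254 genes, whole reads were found that return the deposited gene mean (relative tolerance 1e-09), so the second division was undone. The authors' log2 fold changes and p-values, deposited in the same table, served as an alternative, and 0 columns of per-sample values were left out.

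A gene was tested where 4 or more libraries had 10 or more normalised reads, on log2(value + 1) with limma 3.58.1 in R 4.3.3 (mean-variance trend, robust), with Benjamini-Hochberg adjustment over 15381 genes and calls at an adjusted p under 0.05. A count model was not the main test because the table was deposited as a signal. Limma-voom on the recovered whole reads served as an alternative. Exact permutations used SciPy 1.17.1, and the limma test was run on simulated data. That simulation held no shared swings between libraries such as those of the members. Library totals ran from 37252683 to 46515762 reads, and counting error was not separated from the spread between libraries. Intervals from read numbers cover counting error only. Promoters come from RefSeq (GRCm38.p6) and gene positions from GENCODE M21. Replicate numbers do not pair the libraries (correlations of same-numbered deviations 0.21, -0.14, -0.14 and 0.06). The members and lists were chosen with earlier results of these data known. Named genes are the members, Vhl, a fixed set of pathway genes, called genes of each list (up to 4) and the genes most like the members; Six2 is named as the label's check. Alternatives covered pseudocount, filter, scaling, model, left-out libraries and the replicate number. Calls within 1 marker list are not reported here.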

Additional observations from a re-analysis of the deposited data

Results flagged for a closer look

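In 90 groups of 4 libraries checked for a single library far from the other 3, 8 were flagged, and chance flags about 1 in 20. Control 3 had a Krt19 to Krt8 ratio of 0.714, against 0.227 to 0.276 in the other controls, and a Krt19 to Krt18 ratio of 0.629, against 0.304 to 0.344. Mutant 2 had a Krt19 to Krt18 ratio of 1.34, against 0.901 to 0.962 in the other mutants. These are the libraries with the lowest summed level of the 10 genes in their groups.

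The summed podocyte markers were 25132 normalised reads in mutant 4, against 27240 to 27641 in the other mutants, and 33993 in control 2, against 28413 to 28896 in the other controls. Upk2 was 9.61 normalised reads in control 4, against 2.09 to 2.95 in the other controls. In mutant 1, Fzd1 was 5109 normalised reads, against 4509.8 to 4598 in the other mutants, and Adgra2 was 6912, against 6142 to 6271.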

How the results depend on the processing

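Krt19 (log2 fold change 1.86 to 2.14) and Vhl (-1.98 to -1.83) were called under 22 of 22 alternatives, and 0 members were called lower under any of them. The count of members called higher was 1, or 2 without control 4, without mutant 2, with a replicate block and in the authors' deposited table (Krt19 and Upk3a), and 2 with the principal cell covariate (Krt19 and Krt18); leaving out 1 library gave 1 to 2. Replicate numbers do not pair the libraries, and with the replicate block Upk3a had a limma adjusted p of 0.0321. Directions turned below 0 without control 3 for Gata3 (-0.0395), Tfap2b (-0.48), Wnt9b (-0.32), Wnt7b (-0.35), Calb1 (-0.0527) and Aqp2 (-0.34). Tfap2b was also below 0 with library quality weights (-0.23), without mutant 1 (-0.16), without control 3 and mutant 2 (-0.27), with the covariate (-0.10) and in the authors' deposited table (-0.0829), as were Wnt7b with quality weights (-0.20) and Aqp2 without control 3 and mutant 2 (-0.0928). None of these values was called. The highest value without 1 library was 0.98 for Gata3, 0.43 for Tfap2b, 1.42 for Wnt9b, 0.72 for Wnt7b, 1.178 for Calb1 and 1.175 for Aqp2.

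Over all tested genes, 831 were called higher and 466 lower. The counts were 537 and 160 with the deposited values as they stand, 1622 and 1374 with quality weights, 550 and 216 with the replicate block, 541 and 223 without control 3 and mutant 2, and 487 and 175 without control 2 and mutant 2. Lower calls alone moved past 1.5 times with total-read scaling (838), limma-voom (797) and the authors' deposited table (810). Leaving out 1 library gave 541 to 913 higher and 231 to 652 lower calls. The median r between members was 0.61 without control 3 and mutant 2 and 0.76 to 0.93 without 1 library. Of 396 counts of called genes in the lists, 351 were within 1.5 times of the main value. The cause was not tested. Upk3a rests on 6 to 64 reads a library and Wnt9b on 3 reads in control 3.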
